A study of Mus musculus with 90 samples.

Results

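The genes described here are Fbxw13, Fbxw14, Fbxw15, Fbxw16, Fbxw18, Fbxw19, Fbxw20, Fbxw22, Fbxw24 and Fbxw28, which were chosen by symbol from the 24422 gene rows of a count table of single mouse oocytes and early embryos. All 10 were found in the table. All 10 also passed the filter on low counts (at least 1 CPM, the count scaled by library size, in at least 5 libraries) that left 16511 genes for testing, a filter that high oocyte values alone can satisfy.

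These genes encode proteins with an F-box and WD repeats. An F-box protein is the part of an SCF (Skp1, cullin, F-box) ubiquitin ligase that holds the substrate: the F-box binds Skp1, which sits on the cullin Cul1, and the WD repeats form the surface that meets the target protein. The ligase then hands ubiquitin to that target, which is often degraded. The members studied here lie together in one cluster and are known chiefly as genes of the oocyte, where transcripts are stored during growth, used without new transcription at maturation, and cleared after fertilization.

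MII oocytes (unfertilized, arrested in the second meiotic division), 2-cell (2c) and 8-cell (8c) embryos were collected singly from CD-1 mice. WT females gave the WT oocytes and embryos. Plag1 knockout (KO) females, which lack the zinc finger transcription factor Plag1 in every cell, gave the KO oocytes, and their embryos are called matPlag1KO. All females were superovulated, and all embryos had WT fathers, so that matPlag1KO embryos were heterozygous and lacked only the maternal supply and the maternal allele. Oocytes were picked uncultured 21 to 23 h after the hormone hCG. Embryos were cultured in KSOM medium and picked at 45 to 47 h (2c) and 71 to 73 h (8c). Libraries were made in 2 multiplexed pools, A and B, each holding all stages and both genotypes. The labels name no donor females, so embryos of a group may share a mother, and p-values measure the spread between single oocytes or embryos. Libraries of one well position in the 2 pools tended to be correlated, as described below, and the main fits count them as independent.

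The 10 members lay on the minus strand of chromosome 9 (mm9), from 109081741 to 109605214. The whole cluster spanned 651 kb (109041968 to 109693164) and held 13 Fbxw genes, the other 3 being Fbxw21, Fbxw26 and Fbxw27. In order of rising coordinate the genes were Fbxw21, Fbxw13, Fbxw20, Fbxw14, Fbxw28, Fbxw22, Fbxw16, Fbxw19, Fbxw15, Fbxw24, Fbxw18, Fbxw26 and Fbxw27. The 6 members shown include those with the most and the fewest oocyte counts and a near-identical pair. For each, the 120 bases before the start annotated in the deposited table are given. They are written 5′ to 3′ along the transcript, with CAGCTG (a form of the E-box, CANNTG) and TTTAAAA in capitals.
Fbxw20, chr9:109137269-109137388, minus strand: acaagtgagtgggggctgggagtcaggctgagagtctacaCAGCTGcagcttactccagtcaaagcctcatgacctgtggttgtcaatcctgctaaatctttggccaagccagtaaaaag
Fbxw22, chr9:109306809-109306928, minus strand: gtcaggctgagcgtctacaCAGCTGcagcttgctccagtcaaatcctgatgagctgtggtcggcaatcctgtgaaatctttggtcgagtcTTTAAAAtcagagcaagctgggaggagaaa
Fbxw24, chr9:109528574-109528693, minus strand: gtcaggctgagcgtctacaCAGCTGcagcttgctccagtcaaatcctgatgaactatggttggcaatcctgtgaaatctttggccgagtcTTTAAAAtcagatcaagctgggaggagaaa
Fbxw13, chr9:109098490-109098609, minus strand: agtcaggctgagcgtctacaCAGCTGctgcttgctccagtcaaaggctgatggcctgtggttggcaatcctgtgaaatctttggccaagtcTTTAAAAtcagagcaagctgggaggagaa
Fbxw14, chr9:109190191-109190310, minus strand: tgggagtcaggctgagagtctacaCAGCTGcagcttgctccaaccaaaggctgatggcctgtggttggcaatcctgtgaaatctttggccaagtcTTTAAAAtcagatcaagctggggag
Fbxw28, chr9:109242174-109242293, minus strand: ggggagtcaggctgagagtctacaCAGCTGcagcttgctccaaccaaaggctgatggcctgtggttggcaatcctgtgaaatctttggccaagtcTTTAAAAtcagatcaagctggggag

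The E-box is the site of basic helix-loop-helix factors, among them the oocyte factor Figla. At least 1 CANNTG, on either strand, stood within 250 bases before the start of 10 of 10 members and of 63.1% of the 24320 gene starts scanned over the same length. The form CAGCTG, chosen after the sequences were read, was present in 10 of 10 members and in 12.3% of all starts. TTTAAAA, also chosen after reading, was present in 9 of 10 members and in 7.29% of all starts. It began 30 bases before the annotated start in Fbxw22 and Fbxw24, but 10 bases before the start in Fbxw18 and 54 in Fbxw19. Fbxw20 was the member without it. TATAAA (12.1% of all starts), TAATTA (4.40%) and TAATTG (6.18%) were in none of the 10 windows. TAATTA and TAATTG are forms of the site of Nobox, another oocyte factor. These matches are descriptions of letters, and members that arose as copies of each other share them by sequence.

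The members are near copies of each other, and some can share reads. Over the coding parts of the GENCODE transcripts, the 45 pairs of members had a median identity of 83.0% (range 79.3% to 99.1%). Fbxw14 and Fbxw28 were the closest, with 99.1% identity in the coding part and 99.2% in the 120 bases shown, and 65.8% of the 40-base stretches of the Fbxw14 transcript also occurred in another transcript of the cluster (74.3% for Fbxw28). For the other 8 members this share was between 7.67% (Fbxw24) and 17.9% (Fbxw19). In the first 100 bases of the transcript, where reads from 5′ ends fall, it was 100% for Fbxw14 and Fbxw28, 24.6% for Fbxw22, 11.5% for Fbxw16 and at most 6.56% for the other 6. The very first 40 bases of Fbxw14 and of Fbxw28 occurred at 4 places in the cluster, and those of Fbxw24 at 3. How reads that match several places were counted is not given in the sources used here, so the counts of Fbxw14 and Fbxw28 are uncertain, and those of Fbxw24, Fbxw22 and Fbxw16 may be affected in part.

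Of 90 libraries, 78 were kept: 16 WT and 14 KO oocytes, 11 WT and 11 matPlag1KO 2c embryos, and 15 WT and 11 matPlag1KO 8c embryos. Gene counts ranged from 92475 to 2502421 per library, with medians of 395023 in WT and 649899 in KO oocytes and of 148473 and 163626 at 2c, so a single count weighed more at 2c. Plag1 had 326 pooled counts in WT oocytes and 4 in KO oocytes, but 1 in WT and 91 in matPlag1KO 2c embryos, so the 2c libraries labelled matPlag1KO held more Plag1 RNA than those labelled WT. All 15 oocyte markers were detected in WT and KO oocytes. Summed cumulus and granulosa markers did not exceed 56.7 CPM in any oocyte, where 8 of the 15 listed had a count in WT and 9 of 15 in KO oocytes. Among those at 0 in both genotypes were Ptx3, Tnfaip6, Ptgs2, Amh and Foxl2.

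The cluster was detected in every MII oocyte kept, and its 10 members held 0.222% of pooled gene counts in WT and 0.247% in KO oocytes. Each library is 1 whole oocyte or embryo, so RNA per cell and the number of cells cannot be told apart. The 10 members together had 722 CPM in the lowest WT oocyte, a median of 1929 and 3884 in the highest, and 1314, 2595 and 3667 CPM in KO oocytes (CPM on library sizes scaled by edgeR's TMM method). The pools differed, with medians of 2363 CPM in pool A and 1607 CPM in pool B for WT oocytes, and of 3188 and 1651 CPM for KO oocytes. CPM were set side by side between members because reads come from the 5′ end of each transcript, and the transcripts are of like length (1485 to 1824 bases).

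Fbxw20, Fbxw22 and Fbxw18 led. In WT oocytes Fbxw20 had a lowest, median and highest level of 121, 386 and 796 CPM, and 233, 421 and 1369 CPM in KO oocytes. Fbxw22 had 132, 404 and 782 CPM in WT and 162, 554 and 873 CPM in KO oocytes. Fbxw18 had 56.7, 330 and 1045 CPM in WT and 150, 501 and 1165 CPM in KO oocytes. The ranges of the genotypes overlapped for all 3 genes, and each was detected in every oocyte.

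Fbxw19, Fbxw15, Fbxw24 and Fbxw16 formed a middle tier. Their WT medians were 148, 165, 174 and 95.4 CPM, and their KO medians were 256, 210.0, 171 and 167 CPM. Fbxw28, Fbxw13 and Fbxw14 were scarce by count, with WT medians of 17.8, 15.1 and 9.61 CPM and KO medians of 20.5, 15.4 and 17.6 CPM. The counts of Fbxw28 and Fbxw14 are uncertain, as given above, so this scarcity may not hold for their transcripts. Fbxw14 had no count in 3 of 16 WT oocytes (detected in 13), whereas all 14 KO oocytes had at least 1.

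**Figure D1:**
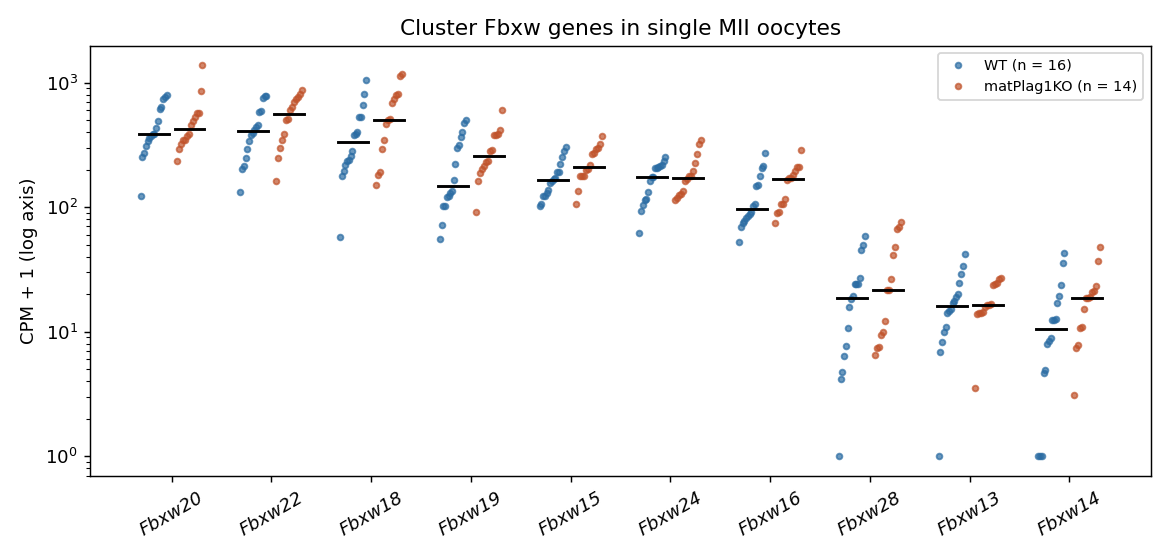
Level of each cluster gene in single MII oocytes, as CPM + 1 on a log axis. Each point is a library (16 WT in blue, 14 KO in orange) and each bar a median, and the medians of Fbxw28, Fbxw13 and Fbxw14 lie below those of the other 7 genes in both genotypes. The counts of Fbxw28 and Fbxw14 are uncertain because their sequences are shared.

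By mean level in WT oocytes the order was Fbxw20 (454 ± 200 CPM, SD, n = 16), Fbxw22 (437 ± 208), Fbxw18 (399 ± 261), Fbxw19 (222 ± 147), Fbxw15 (176 ± 61.7), Fbxw24 (166 ± 56.9), Fbxw16 (124 ± 63.5), Fbxw28 (20.3 ± 17.1), Fbxw13 (16.7 ± 10.4) and Fbxw14 (12.3 ± 12.1). A difference between neighbours was held to be beyond their spread when the mean of the within-library log2 ratio exceeded its SD. By that measure only the step from Fbxw16 to Fbxw28 stood out, with a log2 ratio of 2.97 ± 1.39 and Fbxw16 higher in 16 of 16 WT oocytes. In KO oocytes the same step was 2.78 ± 1.18 and held in 14 of 14, and the step from Fbxw20 to Fbxw19 (0.80 ± 0.62) also exceeded its spread. The order of the leading 3 thus could not be told apart within a genotype. Per kilobase of transcript, Fbxw20 (300.2 CPM per kb), Fbxw18 (263) and Fbxw22 (240) remained the leading members in WT oocytes. The step from Fbxw16 to Fbxw28 rests on uncertain counts, since 100% of the 40-base stretches in the first 100 bases of Fbxw28 are shared.

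Every member fell between the MII oocyte and the 2c embryo. This comparison follows stored transcripts through fertilization and the first cleavage, and its values were scaled to the spike-in RNA added to every library at one dilution, because the RNA content of the embryo changes. The members together had 16.0 counts per 1000 spike-in counts in the lowest WT oocyte, a median of 94.3 and 526 in the highest, and 4.14, 4.85 and 8.37 in WT 2c embryos. The KO values were 58.4, 175 and 397 in oocytes and 3.81, 7.16 and 16.6 in matPlag1KO 2c embryos. The groups did not overlap in either genotype. The median at 2c was 5.14% of that in oocytes in WT and 4.08% in matPlag1KO, whereas all gene counts per spike-in count were at 36.4% and 28.5%. These percentages depend on the pool. In WT the medians were 177 in oocytes and 5.19 at 2c in pool A, and 54.2 and 4.85 in pool B. The KO and matPlag1KO medians were 217 and 5.79 in pool A and 158 and 7.33 in pool B.

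Fbxw20 and Fbxw22 had the lowest fold changes of the 10 in both genotypes. In WT, Fbxw20 had 2.67, 17.9 and 142 counts per 1000 spike-in counts (lowest, median, highest) in oocytes and 0.22, 0.48 and 1.01 at 2c. No 2c embryo reached the lowest oocyte. Its log2 fold change was -5.87 (SE 0.62, adjusted p = 1.2e-13 by the quasi-likelihood test of edgeR, Benjamini-Hochberg over all tested genes), and -5.85 in matPlag1KO (SE 0.62, adjusted p = 1.5e-13). Fbxw22 had 2.92, 18.8 and 55.1 counts per 1000 spike-in counts in WT oocytes and 0.088, 0.40 and 1.00 at 2c, again without overlap. Its log2 fold change was -5.81 in WT (SE 0.49, adjusted p = 8.3e-18) and -5.61 in matPlag1KO (SE 0.49, adjusted p = 2.4e-17).

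Fbxw24 and Fbxw16 fell less. Fbxw24 had 1.34, 8.48 and 22.8 counts per 1000 spike-in counts in WT oocytes and 0.50, 1.08 and 2.54 at 2c, so the highest 2c embryos exceeded the lowest oocyte. That oocyte, in well A7 of pool A, also had the lowest member total. The next lowest oocyte had 3.40, above every WT 2c embryo. Its log2 fold change was -2.95 in WT (95% interval -3.76 to -2.13) and -3.36 in matPlag1KO (-4.19 to -2.52). In WT this interval did not overlap those of Fbxw20 (-7.09 to -4.65) and Fbxw22 (-6.78 to -4.84), nor did it in matPlag1KO (-7.06 to -4.64 and -6.56 to -4.66). Fbxw16 had a log2 fold change of -3.39 in WT (SE 0.50) and -3.22 in matPlag1KO (SE 0.49). Differences between members, which share their libraries, were not tested directly.

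Fbxw18, Fbxw15 and Fbxw19 lay between, with log2 fold changes of -4.39, -4.44 and -4.42 in WT and of -4.82, -4.38 and -4.10 in matPlag1KO. Among the scarce members, Fbxw13 had -3.37 and -3.25, Fbxw28 -4.23 and -4.68, and Fbxw14 -5.14 and -2.81 in WT and matPlag1KO. Fbxw14 rested on 2 counts in all WT and 21 in all matPlag1KO 2c embryos, and Fbxw28 on 7 and 10, so these values carry wide intervals (Fbxw14 in WT, -6.79 to -3.49). They also leaned on the WT oocyte in well A5 of pool A, whose member total was the highest (526, next 221): without it Fbxw14 had -4.13 and Fbxw28 -3.47 in WT, both still called.

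**Figure D2:**
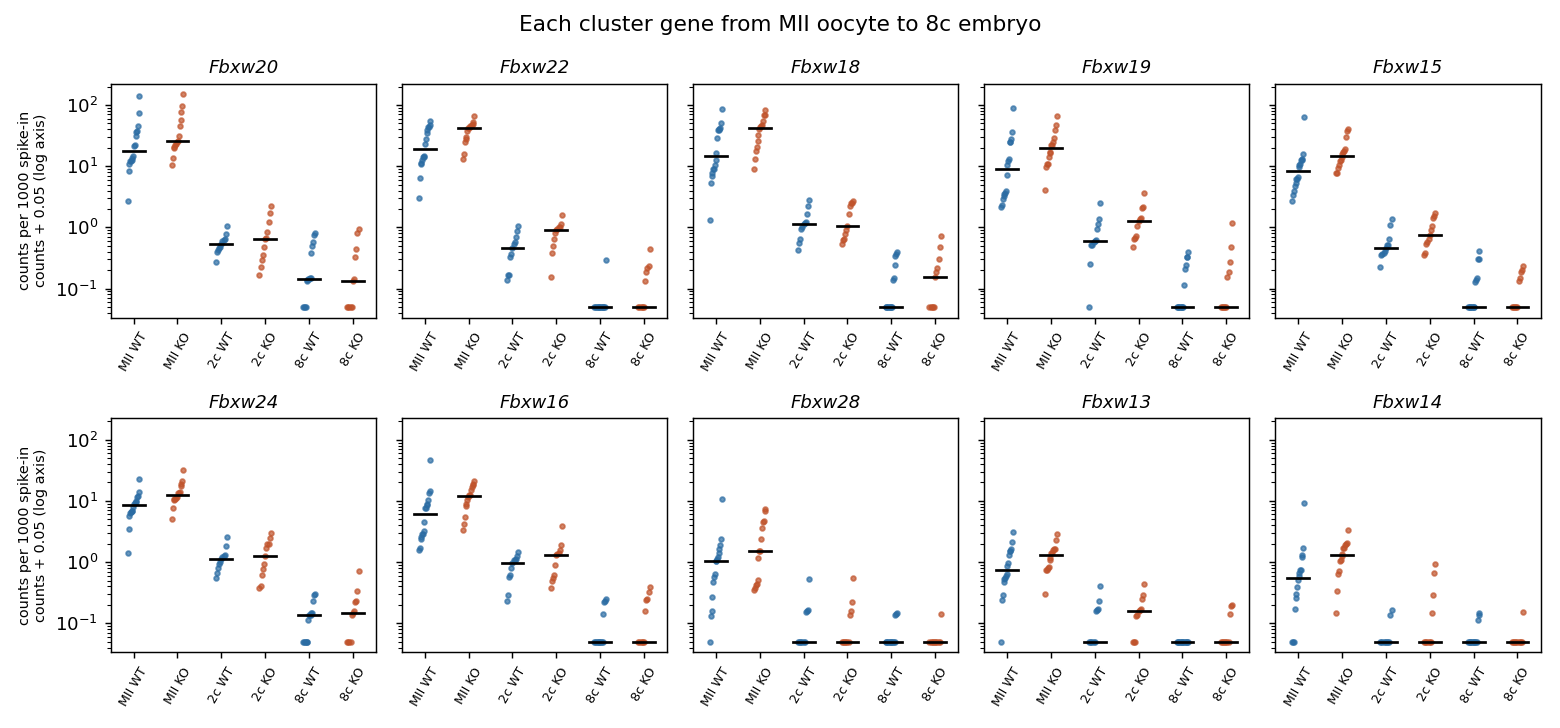
Each cluster gene in the 6 groups, as counts per 1000 spike-in counts + 0.05 on a log axis. Points are single oocytes or embryos (WT in blue, KO or matPlag1KO in orange), bars are medians, and the points at the floor of each panel are libraries with no count. All 10 genes are lower at 2c than in MII oocytes in both genotypes.

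In all, 10 of 10 members passed the test as lower at 2c in WT and 10 of 10 in matPlag1KO, where 51.3% and 50.3% of all tested genes were also called lower. Their median log2 fold change was -4.40 in WT and -4.24 in matPlag1KO, against -1.46 and -1.42 over all tested genes. Every oocyte lay above every 2c embryo for 4 of 10 members in WT (Fbxw20, Fbxw22, Fbxw16 and Fbxw15) and 4.97% of all tested genes, and for 6 of 10 in matPlag1KO (Fbxw20, Fbxw22, Fbxw19, Fbxw15, Fbxw24 and Fbxw18) and 10.3% of all tested genes. The overlap of Fbxw24 and Fbxw18 in WT came only from the oocyte in well A7 of pool A. With TMM factors in place of spike-in RNA, which moved the median of all genes to -0.03 in WT and 0.14 in matPlag1KO, 10 and 9 members were called lower (medians -2.60 and -2.39), the exception being Fbxw14 in matPlag1KO (-1.17, adjusted p = 0.0777). In that fit 3814 and 3192 of the 16511 tested genes were called lower. All 10 were called lower in each pool alone, with medians of -5.59 in pool A and -3.19 in pool B in WT and of -4.63 and -3.69 in matPlag1KO. Of all genes tested, 7075 of 15073 in pool A and 4543 of 15161 in pool B were lower in WT. In matPlag1KO the counts were 6149 and 6517.

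**Figure D3:**
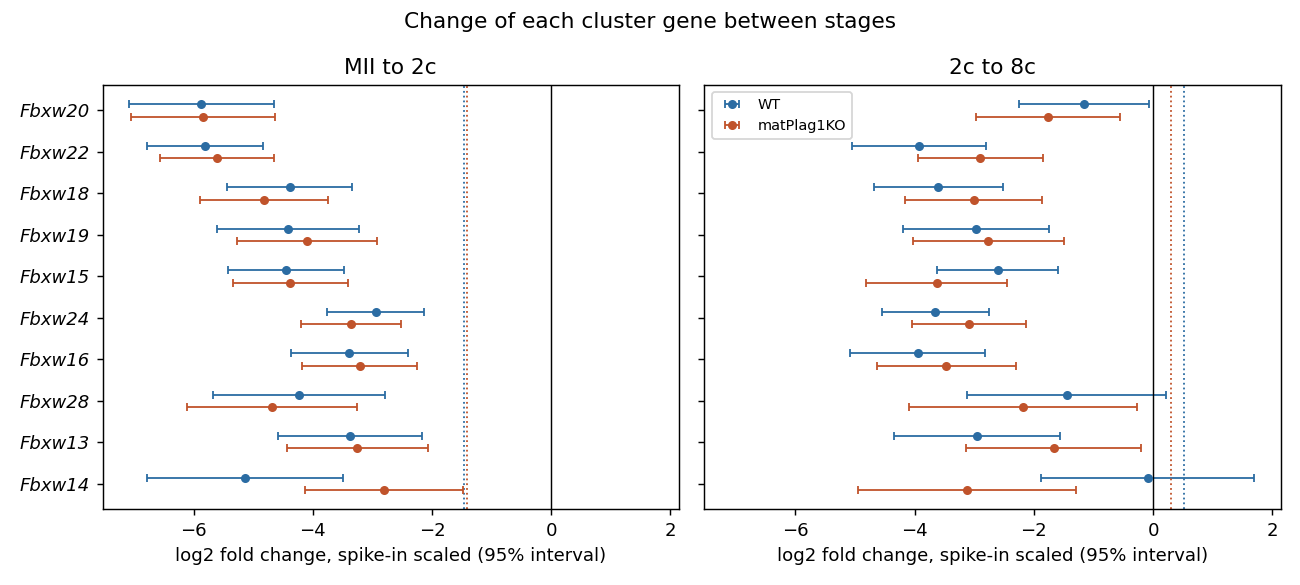
Log2 fold change of each cluster gene from MII to 2c (left) and from 2c to 8c (right) with 95% intervals, scaled to spike-in RNA. WT is in blue and matPlag1KO in orange, and dotted lines give the median of all tested genes (-1.46 and -1.42 on the left, 0.53 and 0.30 on the right). The WT values of Fbxw14 and Fbxw13 on the right rest on 2 and 3 counts and on 9 and 0 counts and give no exact fold. Nor do those of Fbxw22, which rests on 45 counts at 2c and 3 at 8c, and of Fbxw28 (7 and 3). In matPlag1KO, Fbxw14, Fbxw28 and Fbxw13 had 1, 1 and 3 counts at 8c and give no exact fold either.

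The make-up of the cluster's transcripts also differed between MII and 2c. Shares were taken within each library, so they do not depend on its scaling, and they are given as a description with no test. Fbxw20 made up 22.5% ± 5.3 (SD, n = 16) of the member counts of a WT oocyte and 9.51% ± 3.4 (n = 11) of a WT 2c embryo, and Fbxw22 21.5% ± 5.3 and 7.78% ± 5.1. Fbxw24 had 9.09% ± 4.0 in oocytes and 21.0% ± 8.6 at 2c, and Fbxw16 6.12% ± 1.6 and 15.5% ± 8.6. The ranges still met: Fbxw20 took 14.2% to 33.8% of a WT oocyte and 4.0% to 16.4% of a WT 2c embryo. In KO oocytes and matPlag1KO 2c embryos the shares were 20.8% ± 9.6 and 9.17% ± 6.5 for Fbxw20, 21.2% ± 5.8 and 10.3% ± 5.4 for Fbxw22, 7.81% ± 2.6 and 15.9% ± 6.7 for Fbxw24, and 6.04% ± 0.91 and 14.9% ± 6.9 for Fbxw16. Each 2c library held between 34 and 169 member counts, so its shares carry a large counting error.

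**Figure D4:**
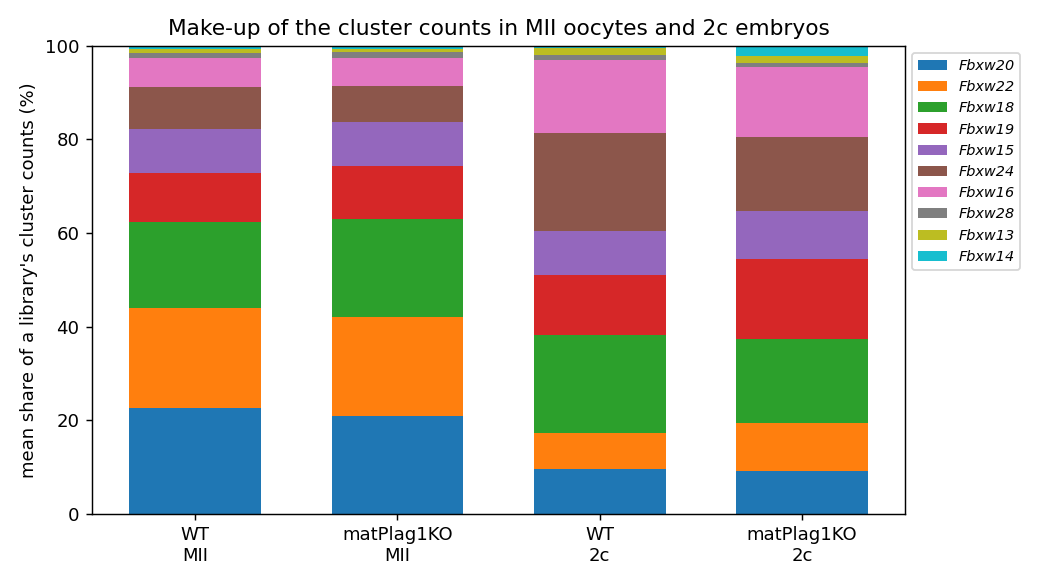
Mean share of each cluster gene in the summed counts of the 10 genes of a library, in percent, with each library weighted equally (16 WT and 14 KO oocytes, 11 WT and 11 matPlag1KO 2c embryos). The shares of Fbxw20 and Fbxw22 are smaller, and those of Fbxw24 and Fbxw16 larger, at 2c than in oocytes.

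At 2c Fbxw18 had the highest mean in both genotypes, followed by Fbxw24 in WT and by Fbxw19 and Fbxw24 in matPlag1KO. In WT 2c embryos Fbxw18 had 18.2, 54.6 and 113 CPM (lowest, median, highest) and Fbxw24 28.7, 56.1 and 120 CPM. In matPlag1KO 2c embryos Fbxw18 had 19.5, 55.8 and 154 CPM and Fbxw24 20.1, 65.5 and 113 CPM. Fbxw20 stood at a median of 26.9 CPM in WT and 32.3 CPM in matPlag1KO. By mean level the 7 leading members could not be told apart from their neighbours, and the step down to the scarce 3 (Fbxw13, Fbxw28 and Fbxw14) exceeded its spread in both genotypes.

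Between 2c and 8c the cluster fell again, to a median of 7 member counts per library in WT and 8 in matPlag1KO (at most 22 and 21). The members together had 0 counts per 1000 spike-in counts in the lowest WT 8c embryo, a median of 0.53 and 1.87 in the highest, below all WT 2c embryos. In matPlag1KO 8c embryos the values were 0.10, 1.20 and 2.04, also below all matPlag1KO 2c embryos. In pooled counts, 113 member counts remained in 15 WT and 108 in 11 matPlag1KO 8c embryos, and the medians were 0.562% and 0.686% of those in oocytes.

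The test called 7 of 10 members lower in WT, against 16.2% of all tested genes, and 8 of 10 in matPlag1KO, against 19.5%. The calls of Fbxw13 and Fbxw22 in WT and of Fbxw14 in matPlag1KO rest on at most 3 pooled counts at 8c. The medians that follow include such values. The members' median log2 fold change was -2.96 in WT (-2.79 with Fbxw13, which had no count at 8c, at its bound) and -2.95 in matPlag1KO, whereas that of all tested genes was 0.53 and 0.30. Every 2c embryo lay above every 8c embryo for Fbxw24 and Fbxw18 in WT (1.76% of all tested genes) and for Fbxw15 in matPlag1KO (2.04%).

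Fbxw16 had 0.18, 0.91 and 1.43 counts per 1000 spike-in counts in WT 2c embryos, and 11 of 15 WT 8c embryos had none (4 with a count). Its log2 fold change was -3.95 (SE 0.58, adjusted p = 1.2e-08) in WT and -3.46 (SE 0.59, adjusted p = 8.6e-07) in matPlag1KO. Fbxw24 had -3.65 in WT (SE 0.46, adjusted p = 8.7e-11) and -3.08 in matPlag1KO (SE 0.49, adjusted p = 1.2e-07). Fbxw22 (-3.92 and -2.90), Fbxw18 (-3.60 and -3.01), Fbxw19 (-2.97 and -2.76) and Fbxw15 (-2.61 and -3.63) were called lower in both genotypes as well. The WT value of Fbxw22 rests on 3 counts at 8c, all in 1 of 15 embryos and at the floor, and gives no exact fold. Fbxw13 went from 9 pooled counts at 2c to 0 in all 15 WT 8c embryos, at least 4.96-fold lower per spike-in count when the floor of 3 counts over the group is used, and had -1.67 in matPlag1KO (adjusted p = 0.0586). The matPlag1KO value rests on 3 counts at 8c, at the floor, and gives no exact fold.

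Fbxw20 was the member with the most counts at 8c in WT, with 40 of the 113 pooled counts and a count in 11 of 15 WT embryos. Its log2 fold change from 2c was -1.16 in WT (95% interval -2.24 to -0.07, adjusted p = 0.0763) and -1.77 in matPlag1KO (adjusted p = 0.0135). With TMM factors the value in WT was -2.09 (adjusted p = 7.6e-05). Fbxw28 (-1.45 in WT, adjusted p = 0.152, and -2.19 in matPlag1KO, adjusted p = 0.0556) was not called. It had 3 pooled counts at 8c in WT and 1 in matPlag1KO, so these values give no exact fold. Fbxw14 had 2 pooled counts at 2c and 3 at 8c in WT, so no fold is given, and went from 21 counts to 1 in matPlag1KO (-3.12, 95% interval -4.95 to -1.29, adjusted p = 0.00388). The matPlag1KO value gives no exact fold, since 1 count is under the floor and 18 of the 21 came from 2 libraries. Within a single pool 6 or 7 members were called lower. Of all genes tested, 1255 (WT) and 1750 (matPlag1KO) of 15073 in pool A were lower, and 2010 and 1932 of 15161 in pool B. With TMM factors 9 members were called lower in WT and 10 in matPlag1KO, against 4767 and 5008 of the 16511 tested genes.

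No member passed the test between the genotypes at any stage. These comparisons ask what the missing maternal Plag1 changes, on TMM-scaled counts. At MII 0 of 10 members were called, against 0.781% of all tested genes, and 0 had an unadjusted p under 0.05. All 10 had a log2 fold change above 0 (median 0.34, all tested genes 0.00), from 0.01 for Fbxw13 (95% interval -0.79 to 0.81) to 0.51 for Fbxw28 (-0.32 to 1.34). The largest among the abundant members was that of Fbxw18, at 0.51 (-0.15 to 1.16, adjusted p = 0.681). Values for the others were 0.17 for Fbxw20, 0.30 for Fbxw22, 0.37 for Fbxw19, 0.38 for Fbxw15, 0.19 for Fbxw24, 0.31 for Fbxw16 and 0.45 for Fbxw14. DESeq2 called 0 members. The median was 0.37 in pool A, where 9 of 10 were above 0, and 0.25 in pool B, where 8 of 10 were and Fbxw28 had -0.55. Pairing oocytes by well (a replicate block, with pool as a term) made Fbxw19 a call (0.47, adjusted p = 0.018), with 831 genes called in all and 4 members at an unadjusted p under 0.05. The median gene total was also higher in KO than in WT oocytes (given above) and so was the summed level of the 15 oocyte markers (medians 32674 and 11655 CPM), and their part in these values was not tested.

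At 2c 0 of 10 members were called, against 4.92% of all tested genes. The 1 member at an unadjusted p under 0.05 was Fbxw14, which had 2 counts in 2 of 11 WT embryos and 21 counts in 4 of 11 embryos labelled matPlag1KO. Of these 21, 18 came from 2 libraries (11 and 7), which were in the same well (D2) of the 2 pools. Its log2 fold change was 2.67 (SE 0.89, adjusted p = 0.0578). DESeq2 (2.64, adjusted p = 0.0457), median-ratio scaling (2.94, adjusted p = 0.0335) and all libraries kept (2.62, adjusted p = 0.045) called it. Counted as 1 gene with its near-identical copy Fbxw28, the pair had 9 and 31 counts and a log2 fold change of 1.34 (95% interval -0.03 to 2.70, adjusted p = 0.258).

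The other 9 members lay between 0.05 (Fbxw24, 95% interval -0.64 to 0.74) and 0.67 (Fbxw22, -0.15 to 1.48) at 2c. Fbxw19 had 0.64, Fbxw15 0.51, Fbxw16 0.41, Fbxw20 0.36, Fbxw13 0.33, Fbxw28 0.19 and Fbxw18 0.15, and the adjusted p of these 9 was at least 0.356. The intervals do not exclude a difference of 1 on the log2 scale in favour of matPlag1KO for 8 of them, the exception being Fbxw24. The median over the members was 0.38, against 0.12 over all tested genes. Several signs turned with the libraries used: Fbxw13 had -1.16 in pool A alone and Fbxw28 -1.72 in pool B alone. With the well as a block, a fit that rests on 2 pairs of opposite genotype, 6 of 10 members were above 0, and Fbxw22 had -1.12 and Fbxw16 -1.02.

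At 8c 0 of 10 members were called, against 1.74% of all tested genes, and 2 had an unadjusted p under 0.05, while DESeq2 called 0. Fbxw22 had 3 counts in 1 of 15 WT and 10 counts in 5 of 11 matPlag1KO embryos (log2 fold change 1.96, SE 0.71, adjusted p = 0.136). Fbxw13 had 0 and 3 counts, at or under the floor in both groups, so no fold is given (adjusted p = 0.209). The remaining members had log2 fold changes of 1.27 (Fbxw16), 1.01 (Fbxw18 and Fbxw19), 0.85 (Fbxw24), -0.13 (Fbxw20) and -0.34 (Fbxw15), with adjusted p of at least 0.351. Their 95% intervals were wide, for example -0.23 to 2.26 for Fbxw18. Fbxw14 and Fbxw28 each had 3 counts in WT and 1 in matPlag1KO, so no fold is given for them either.

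**Figure D5:**
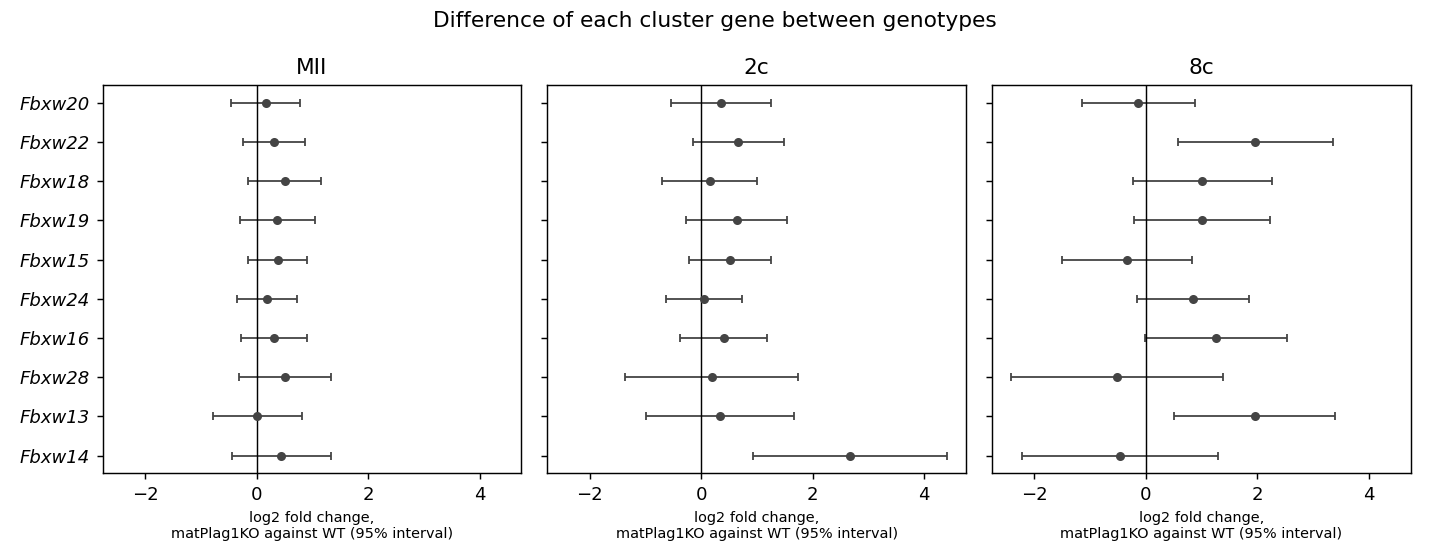
Log2 fold change of each cluster gene in KO or matPlag1KO against WT at MII, 2c and 8c, with 95% intervals, scaled by TMM. All intervals at MII include 0, and those of Fbxw14 at 2c and of Fbxw22 and Fbxw13 at 8c do not, although none passed the adjusted test. Fbxw13, Fbxw14 and Fbxw28 had at most 3 counts in either group at 8c, so their plotted values there give no fold.

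The genotype difference did not pass the test of a change between stages for any member. From MII to 2c 0 of 10 were called, against 3.31% of all tested genes, with 1 at an unadjusted p under 0.05 (Fbxw14, 2.22, adjusted p = 0.21). From 2c to 8c 0 were called, against 2.3%, with 2 under 0.05 unadjusted (Fbxw14, -3.13, adjusted p = 0.268, and Fbxw13, adjusted p = 0.223). DESeq2 called 0 in both.

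The other 3 genes of the cluster were also called lower from MII to 2c in WT. Fbxw26 had a log2 fold change from MII to 2c of -4.89 in WT (adjusted p = 5.2e-09), Fbxw27 -4.68 (6.6e-15) and Fbxw21 -4.06 (1.2e-11). Their WT oocyte medians of 138, 224 and 138 CPM fell within the range of the 7 more abundant members. They had the lowest adjusted p of the 13 other F-box and WD genes tested. Of these 13, the test called 9 lower and 1 higher at 2c in either genotype (median -3.32 in WT and -2.62 in matPlag1KO), and from 2c to 8c it called 5 lower and 3 higher in either genotype. Of all 16511 tested genes, 51.3% and 50.3% were lower at 2c in WT and matPlag1KO, and 2326 and 2231 genes higher. From 2c to 8c 16.2% and 19.5% were lower, and 5269 and 4812 genes higher. Outside the cluster the list was mixed. Btrc, which encodes a substrate receptor of beta-catenin, had -3.32 in WT. Fbxw9 was the gene called higher in WT (3.72, adjusted p = 1.7e-07) and Fbxw2 the one in matPlag1KO (2.18, adjusted p = 0.0025). These 3 were named after their values were seen. None of the 13 was called between the genotypes at MII, 2c or 8c, against 0.781%, 4.92% and 1.74% of all tested genes. The genotype difference of Fbxw9 did change from MII to 2c (-2.39, adjusted p = 0.0499).

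The members' partners in the ligase did not follow one course. Among 30 tested genes for the SCF core and cullin regulation, those lower at 2c than in oocytes numbered 22 in WT (median -2.16) and 20 in matPlag1KO (median -2.20), with 2 higher in each. Of all tested genes 51.3% and 50.3% were called lower, and 2326 and 2231 of 16511 higher. By 8c 19 were higher and 5 lower than at 2c in WT, and 10 and 8 in matPlag1KO, whereas no member was called higher. Over all 16511 tested genes, 5269 were called higher and 2681 lower in WT, and 4812 and 3213 in matPlag1KO. Rnf7, a RING subunit of cullin ligases, went from a mean of 8.83 CPM in WT oocytes to 628 at 2c and 2099 at 8c (MII to 2c, 4.62, adjusted p = 9.8e-20). Cops8, a subunit of the COP9 signalosome that removes Nedd8 from cullins, had -4.11 (adjusted p = 6.1e-16), and Nae1, a subunit of the enzyme that activates Nedd8, had -4.06 (adjusted p = 4.1e-15). At 2c 3 of the 30 were called between the genotypes, against 4.92% of all tested genes. Rnf7 was lower in matPlag1KO (215 against 628 CPM, -1.56, adjusted p = 0.00142), and Cdc34, a ubiquitin-conjugating enzyme of SCF ligases (2.06, adjusted p = 0.000908), and Usp2, a deubiquitinating enzyme (1.94, adjusted p = 0.00293), were higher.

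Among 5266 genes with a mean of at least 20 CPM in WT oocytes, those most like the summed members over the 78 libraries included Oas1d (Pearson r of log2(CPM + 1) 0.960), Ggct (0.957), Bpgm (0.955), Rgs17 (0.948), Neil3 (0.947), Fbxw21 (0.946), Bcl2l10 (0.946), Lpl (0.945) and Cd164l2 (0.944). The libraries share their stages, so these values mostly describe a common fall from oocyte to 8c embryo. Oas1d, for example, went from a mean of 2806 CPM in WT oocytes to 122 at 2c and 12.6 at 8c. Fbxw27 ranked at 32 and Fbxw26 at 96.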

How the data were processed

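The authors sequenced single oocytes and embryos from the 5′ ends of transcripts (modified STRT, with UMIs and added ERCC control RNA) in 2 multiplexed pools, A and B, joined UMIs, aligned reads to mm9 with TopHat and counted them with HOMER on UCSC gene models. Versions, the handling of reads with several matches and the use of strand are not given in the sources used here. The deposited table holds raw counts, not normalized, of 24422 genes and 92 spike-in RNAs, with 1 column for each of 90 libraries.

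Libraries with a median CPM under 1 were left out (12 of 90), as in the study. All 6 groups were fitted together in edgeR 4.0.16 (R 4.3.3) with 1 mean per group and its quasi-likelihood test, with TMM factors between genotypes and the spike-in total as library size between stages. A call is an adjusted p (Benjamini-Hochberg, over all 16511 tested genes) below 0.05. SE is the log2 fold change over the root of the F statistic, and 95% intervals are normal. Sequences were read from the mm9 genome at the gene starts of the deposited table, and coding parts of GENCODE transcripts (M1 release for that build) were aligned with Biopython 1.88. Alternatives were DESeq2 1.42.0, the likelihood ratio test, other scalings and filters, all libraries, each pool, pool as a term and the well as a block. The fits were tested on simulated data with independent libraries and 1 dispersion for all genes, in which only genes above a count threshold were changed. That test does not cover correlated wells or members with few counts.

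Library names give a well within each pool. Deviations of same-well libraries from the mean of their group and pool were correlated over 8418 genes. In oocytes 14 of 14 pairs, all of opposite genotypes, exceeded 0.1 (lowest 0.148). On this ground, from the data and not the labels, 1 fit paired oocytes by well. Against the mean of the group alone, oocyte wells A1 and A2 had 0.030 and -0.056. At 2c 5 of 8 pairs exceeded 0.1. At 8c 12 of 12 did (0.104 to 0.416), and each well held the same genotype in both pools. The main fits count such libraries as independent. No correlation was computed for libraries of different wells.

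The members, lists and comparisons were chosen with earlier results of these data known. All members are named. From each list, the 3 genes with the lowest adjusted p from MII to 2c in WT and those called between the genotypes at 2c are named, with at most 5 a list, and the 10 genes most like the summed members by Pearson r, of which 1 is not reported here. Counting floors of 3 counts cover counting error only.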

Additional observations from a re-analysis of the deposited data

How the results depend on the processing

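The fit that paired oocytes by well (replicate block, pool as a term) called 1 member at MII (Fbxw19), and the count of all genes called went from 129 to 831. At 2c 1 member (Fbxw14) was called with all libraries kept, 1 with DESeq2 and 1 with median-ratio scaling, against 0. From MII to 2c, all members were called lower in WT under every alternative, and in matPlag1KO under every one but TMM factors (9 of 10). With Fbxw14 and Fbxw28 counted as 1 gene, 9 of 9 were called lower in each genotype. Over the alternatives, 6 to 9 members were called lower from 2c to 8c in WT and 6 to 10 in matPlag1KO. None was called at 8c between the genotypes or in the tests of a change in genotype difference. The number of all genes called between the genotypes ranged from 46 to 831 at MII, 0 to 1134 at 2c and 6 to 395 at 8c. Between stages, in either direction, it ranged from 6961 to 10954 (WT) and 7447 to 10960 (matPlag1KO) from MII to 2c. From 2c to 8c the ranges were 4026 to 8242 and 4306 to 8509.

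Signs turned only for members without a call in the main fit. Fbxw14 at 2c, which some alternatives called, was among them. At MII, Fbxw13 had -0.078 with all libraries, -0.0075 in pool A, -0.029 with DESeq2, -0.027 with median-ratio scaling and -0.0084 without the WT oocyte in well A5 of pool A, and in pool B Fbxw24 had -0.041 and Fbxw28 -0.55. At 2c, pool A alone gave -1.16 for Fbxw13, -0.083 for Fbxw19 and -0.45 for Fbxw24, pool B -0.16 for Fbxw18 and -1.72 for Fbxw28, all libraries -0.049 for Fbxw24 and -0.047 for Fbxw28, and pool as a term -0.064 for Fbxw28. The replicate block at 2c gave -0.40 for Fbxw14, -1.02 for Fbxw16, -0.33 for Fbxw19 and -1.12 for Fbxw22 and called 0 genes, but only 2 of 8 same-well pairs held opposite genotypes, so it rests on these 2. At 8c, DESeq2 gave 0.089 for Fbxw14 and 0.089 for Fbxw28, pool A 0.28 for Fbxw28 and -0.18 for Fbxw24, and pool B -0.17 for Fbxw19 and 0.73 for Fbxw20. From 2c to 8c in WT, Fbxw14 had 0.26 in pool B and Fbxw28 1.02 in pool A. The cause was not tested. No blocked fit was possible at 8c because wells held 1 genotype.

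Fbxw14, Fbxw28 and Fbxw13 rested on 2 to 21 pooled counts per group at 2c and on 0 to 3 at 8c. Chosen after seeing the data were the fits without well A5 and with Fbxw14 and Fbxw28 counted as 1 gene, which called the pair lower from MII to 2c in both genotypes (-4.70 in WT and -3.82 in matPlag1KO).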

Other observations

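The 12 libraries left out for low median expression entered no comparison. They held 9 to 222 member counts in 2 KO oocytes, 1 to 54 in 3 WT and 6 to 39 in 3 matPlag1KO 2c embryos, and 0 to 2 in 4 matPlag1KO 8c embryos, whose gene counts were only 83 to 1721.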
